A study of Mus musculus with 12 samples.

Results

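The 4 Timp genes and 6 Adamts genes described here encode tissue inhibitors of metalloproteinases and secreted proteases that act on the extracellular matrix, and these 10 of the 18996 genes in the count table were taken by name. TIMPs occupy the active site of metalloproteinases, and Timp3, which binds to the matrix itself, is the main TIMP that blocks the aggrecan-cleaving enzymes Adamts4 and Adamts5. ADAMTS proteases carry thrombospondin repeats that hold them near their substrates, among them aggrecan, versican and brevican. Levels were compared among the No operation, SHAM, and Laminectomy groups, with 4 BALB/c mice in each, 5 to 7 weeks old by the study's methods, and operated mice were sampled 7 days after surgery. SHAM mice lost paraspinal soft tissue but kept their laminae, whereas the laminae were also excised in Laminectomy mice. By the labels, No operation samples were paraspinal soft tissue and the operated samples were soft and scar tissue together, so that surgery and the kind of tissue taken cannot be told apart. All 4 mice of each group were used, although the study describes 3, because the labels do not say which mice those were.

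Markers of several cell types differed between the groups, and these values stand beside every result on Timp and Adamts genes below. Levels are given as CPM, counts scaled to library size with edgeR's TMM factors, and a differentially expressed gene (DEG) had an adjusted p below 0.05 and a log2 fold change beyond 0.5 in either direction. In the counts of markers that follow, 25.7% of all genes tested were higher and 25.1% lower in SHAM, and 24.2% higher and 24.4% lower in Laminectomy. The most abundant marker of a list is the one with the highest mean CPM over all 12 mice, and other markers of the list could exceed it within a group. All 10 skeletal muscle markers fell in SHAM and in Laminectomy. Their sum was 103502, 102328, 120827 and 143386 CPM in No operation replicates 1 to 4, 2399, 6809, 9193 and 10014 CPM in SHAM, and 3474, 14279, 12253 and 11170 CPM in Laminectomy. Myh4, the most abundant over all mice, ranged from 17506 to 34501 CPM without operation, from 444 to 1739 CPM in SHAM and from 350 to 2409 CPM in Laminectomy. Every operated mouse thus held a small part of the muscle transcripts of any unoperated mouse. Of 10 fibroblast markers, 7 rose and 1 fell in SHAM, and the same counts were found in Laminectomy. The fibroblast sum was 28398, 27163, 20037 and 8998 CPM in No operation, 79631, 66522, 71806 and 59036 CPM in SHAM, and 62819, 68344, 61788 and 55128 CPM in Laminectomy, and Col1a1, the most abundant over all mice, ranged from 1609 to 9386, from 15574 to 21166 and from 16529 to 25052 CPM. Macrophage markers rose in 10 of 10 genes in SHAM and in 9 of 10 in Laminectomy. Their sum was 2115, 1413, 1212 and 810 CPM, then 9136, 6191, 5488 and 6235 CPM, then 6173, 4223, 4657 and 3981 CPM, with Lyz2 the most abundant over all mice at 290 to 868, 2331 to 3990 and 1966 to 3561 CPM. No operation replicate 4 was lowest and replicate 1 highest of the unoperated mice for both the fibroblast and the macrophage sum.

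Adipocyte markers fell in 5 of 10 genes in SHAM and in 10 of 10 in Laminectomy. Their sum was 2333, 4095, 3312 and 3868 CPM in No operation, 665, 289, 2597 and 394 CPM in SHAM, and 89.2, 258, 474 and 523 CPM in Laminectomy, and Cfd, the most abundant over all mice, ranged from 883 to 1383, from 15.6 to 991 and from 1.48 to 83.6 CPM. SHAM replicate 3 was the operated mouse closest to the unoperated mice in this sum. Cartilage markers, of which 9 could be tested, gave 1 higher and 3 lower genes in SHAM, and 3 higher and 2 lower in Laminectomy. The cartilage sum was 160, 1092, 1098 and 572 CPM without operation, 23.6, 72.5, 153 and 119 CPM in SHAM and 615, 1443, 417 and 304 CPM in Laminectomy, with Col11a2 at 22.8 to 478, 8.54 to 69.7 and 152 to 494 CPM. All SHAM mice lay below all others in the cartilage sum. Endothelial markers fell in 3 of 10 genes in each operated group, near the share of all genes, with sums of 878 to 1118, 654 to 899 and 601 to 927 CPM and Pecam1 at 172 to 245, 179 to 230 and 158 to 251 CPM. Neutrophil markers gave 1 higher gene of 10 in SHAM and 0 in Laminectomy, with sums of 83.2, 4235, 1616 and 31.8 CPM, then 1167, 463, 634 and 1618 CPM, then 661, 2319, 3465 and 790 CPM, and Ngp at 10.9 to 1429, 2.02 to 272 and 113 to 953 CPM. Markers of central myelin and glia, 6 of them tested, gave 0 higher and 1 lower gene in SHAM and 2 higher and 1 lower in Laminectomy. Their sum was 99.7, 161, 155 and 198 CPM, then 152, 44.3, 101 and 41.1 CPM, then 42.8, 819, 223 and 33.8 CPM, with Mbp at 44.9 to 78.6, 33.7 to 115 and 22.2 to 401 CPM. No marker was at 0 in all 12 mice. Matn1 was at 0 in every No operation mouse, Mobp in every SHAM mouse, and Olig2 and Opalin in all of both groups, all 4 chosen after their values were seen. The part that these cell types had in the levels of the Timp and Adamts genes was not tested, and a lower number of cells of a type cannot be told apart from less RNA per cell.

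Of the 10 inhibitor and protease genes, 8 were DEGs in SHAM relative to No operation, 6 of 10 higher (25.7% of all genes tested were higher) and 2 of 10 lower (25.1% of all genes were lower), where DEGs made up 50.8% of the 14765 genes tested by edgeR. In Laminectomy relative to No operation 5 of 10 were DEGs, 3 higher (24.2% of all genes) and 2 lower (24.4% of all genes), beside 48.6% of all genes, so that this count was near the share of the whole transcriptome. Both comparisons share the same No operation mice and are not independent of each other. Timp1, Adamts4 and Adamts12 rose in both, Timp3 and Timp4 fell in both, and Adamts5, Adamts9 and Adamts15 rose in SHAM but did not pass the threshold in Laminectomy. Timp2 and Adamts1 were DEGs in neither. Between Laminectomy and SHAM, edgeR found 0 DEGs among the 10 and 0 among all genes (0%), although 2 of the 10 and 2360 of all genes (16%) had an unadjusted p below 0.05. DESeq2, in the same comparison, called Adamts5 and Adamts15 and 696 of 16008 genes (4.35%). The other 8 genes had log2 fold changes between −0.28 (Timp1, adjusted p = 0.846) and 0.31 (Adamts4, adjusted p = 0.817) in Laminectomy relative to SHAM. All SHAM mice lay outside the range of No operation for 7 of 10 genes, 5 above and 2 below (54.5% of all genes did so), and all Laminectomy mice for 5 of 10 (56% of all genes). Adamts5 and Adamts15 were the 2 genes for which Laminectomy and SHAM did not overlap (10.1% of all genes).

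**Figure D1:**
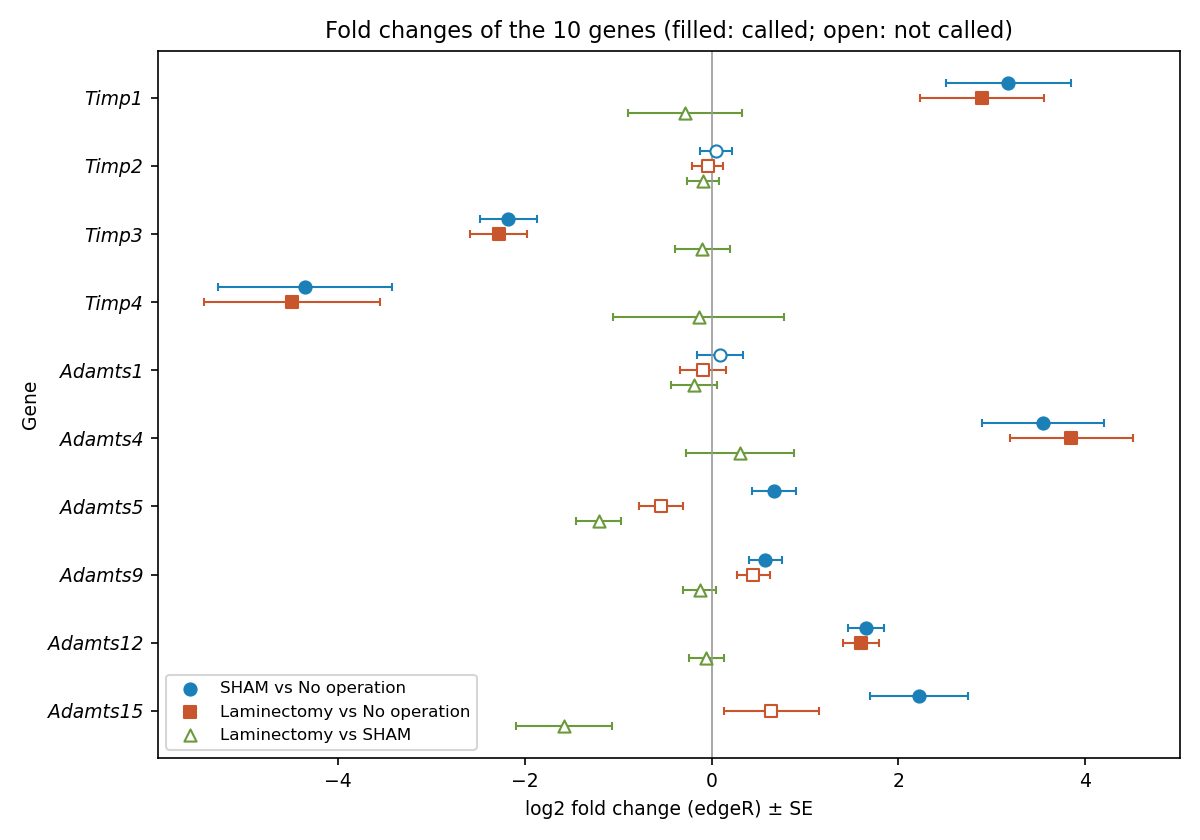
Log2 fold changes of the 10 Timp and Adamts genes, with bars of 1 SE from edgeR, for SHAM and Laminectomy relative to No operation and for Laminectomy relative to SHAM, 4 mice per group; filled points are DEGs. Timp4 lay furthest below 0 (−4.35 and −4.49) and Adamts4 furthest above (3.54 and 3.85); the points of Laminectomy relative to SHAM are all open.

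Timp1, a secreted inhibitor that also binds the latent form of Mmp9, was among the strongest increases. Its level was 54.2, 10.6, 8.53 and 3.93 CPM in No operation replicates 1 to 4, 176, 229, 147 and 147 CPM in SHAM, and 201, 114, 99.6 and 160 CPM in Laminectomy. Every operated mouse exceeded every unoperated mouse, while No operation replicate 1 stood well above the other 3 of its group and SHAM and Laminectomy overlapped. Timp1 rose 9.04-fold in SHAM (log2 fold change 3.18, SE 0.670, adjusted p = 0.00162). In Laminectomy it rose 7.43-fold (log2 fold change 2.89, SE 0.662, adjusted p = 0.00292). Without No operation replicate 1 the log2 fold changes were 4.50 and 4.22, and so the size of the increase depended on this mouse but its direction did not.

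Timp3 is the TIMP held in the matrix, and it showed the reverse pattern. It stood at 599, 596, 1085 and 859 CPM in No operation, at 166, 140, 280 and 108 CPM in SHAM, and at 134, 206, 166 and 141 CPM in Laminectomy. The highest operated mouse, SHAM replicate 3, was still far below the lowest unoperated mouse, and the operated groups overlapped. Timp3 fell 4.52-fold in SHAM (log2 fold change −2.18, SE 0.305, adjusted p = 0.000103). It fell 4.85-fold in Laminectomy (log2 fold change −2.28, SE 0.306, adjusted p = 9.95e-05).

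Timp4, an inhibitor known mainly from heart, muscle and fat, was the member with the largest decrease. Unoperated mice had 28.5, 29.0, 42.1 and 65.3 CPM, SHAM mice 1.18, 0.588, 5.93 and 0.320 CPM, and Laminectomy mice 0, 2.83, 3.00 and 1.46 CPM. These rest on 413 to 931 counts per unoperated mouse, 6 to 112 counts in SHAM and 0 to 58 counts in Laminectomy; the count of 0 in Laminectomy replicate 1 allows up to about 0.159 CPM. All operated mice lay far below all unoperated mice, and SHAM replicate 3, with the highest adipocyte sum after surgery, also had the highest Timp4 level after surgery. In the other groups the highest adipocyte sum was in No operation replicate 2 (4095 CPM) and Laminectomy replicate 4 (523 CPM). Neither of these mice had the highest Timp4 level of its group. The mouse with the lowest adipocyte sum also had the lowest Timp4 level in No operation and Laminectomy (replicate 1 in both), but not in SHAM. Skeletal muscle markers also fell in both operated groups. The highest muscle sum went with the highest Timp4 level only in No operation (replicate 4), and the lowest with the lowest only in Laminectomy (replicate 1). The part of either tissue in Timp4 was not tested. Timp4 fell 20.4-fold in SHAM (log2 fold change −4.35, SE 0.933, adjusted p = 0.0018). The decrease in Laminectomy was 22.5-fold (log2 fold change −4.49, SE 0.940, adjusted p = 0.00169). Without SHAM replicate 3 the log2 fold change in SHAM was −5.88.

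Timp2, which takes part in the activation of latent Mmp2 by Mmp14 as well as in inhibition, was the steady member of the family. It ranged from 634 to 1050 CPM in No operation, from 683 to 891 CPM in SHAM and from 697 to 861 CPM in Laminectomy, so that the 3 groups overlapped throughout. The log2 fold changes were 0.05 in SHAM (SE 0.168, adjusted p = 0.818) and −0.04 in Laminectomy (SE 0.168, adjusted p = 0.847), and leaving out single No operation mice turned the sign of each.

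**Figure D2:**
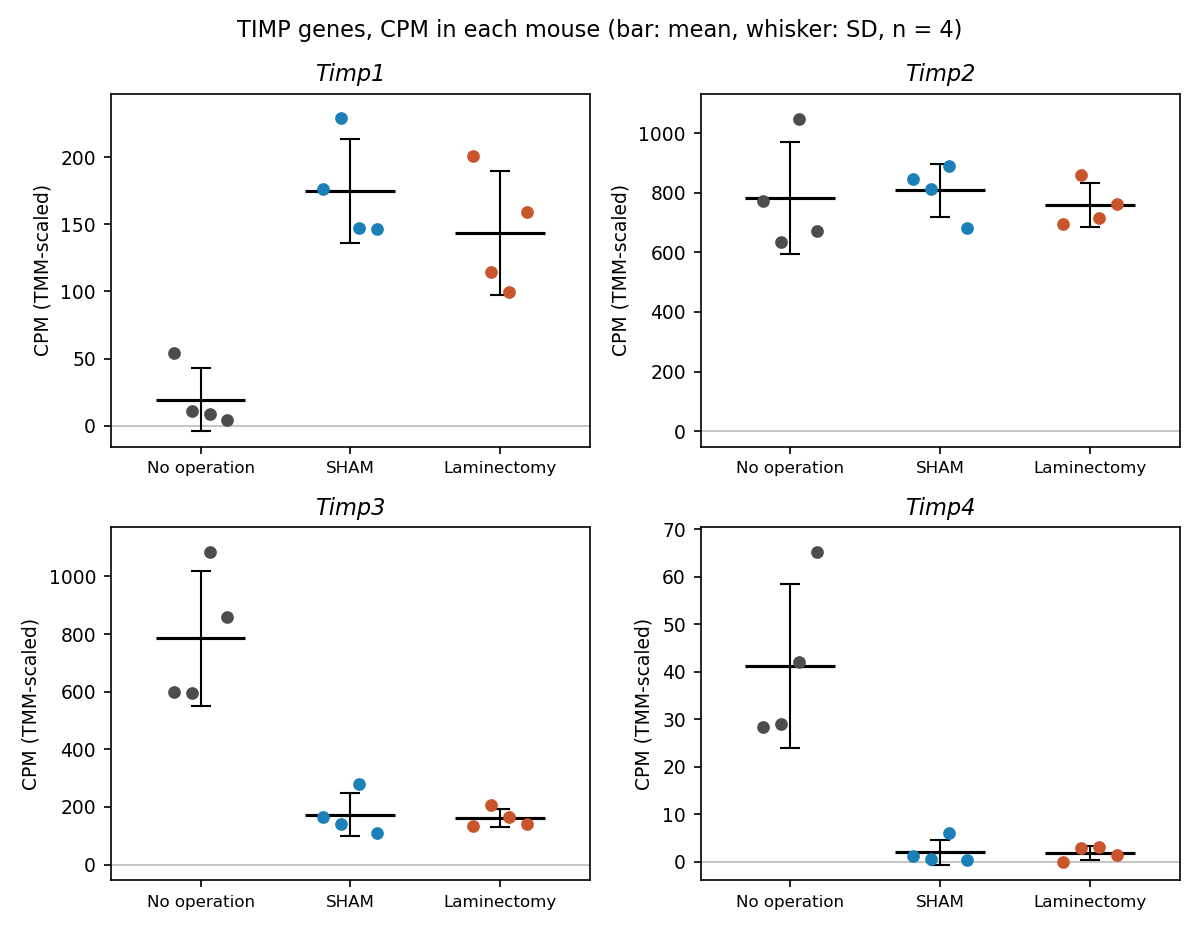
CPM of Timp1, Timp2, Timp3 and Timp4 in each of the 12 mice, 1 point per mouse. Group means for No operation, SHAM and Laminectomy were 19.3, 175 and 144 CPM for Timp1, 782, 808 and 760 CPM for Timp2, 785, 174 and 162 CPM for Timp3, and 41.2, 2.01 and 1.82 CPM for Timp4.

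Among the proteases, Adamts4, an aggrecanase that also cleaves versican and brevican, rose most. Its level was 20.9, 3.53, 2.80 and 1.54 CPM in No operation, 81.6, 62.4, 88.4 and 103 CPM in SHAM, and 131, 83.2, 90.4 and 110 CPM in Laminectomy. No operation replicate 1 was again the highest unoperated mouse, but it remained well below the lowest operated mouse, and the operated groups overlapped. Adamts4 rose 11.7-fold in SHAM (log2 fold change 3.54, SE 0.655, adjusted p = 0.000682). In Laminectomy it rose 14.5-fold (log2 fold change 3.85, SE 0.662, adjusted p = 0.000484). Without No operation replicate 1, the values were 4.99 and 5.30. Across the 12 mice Adamts4 and Timp1 had a correlation of log2 CPM of r = 0.978, and of r = 0.923 after group means were removed, a description of 12 libraries that the single high unoperated mouse also shapes.

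Adamts12, a protease that cleaves cartilage oligomeric matrix protein, rose less but with little spread. It stood at 34.7, 30.3, 20.4 and 20.8 CPM in No operation, 87.0, 63.4, 98.7 and 84.8 CPM in SHAM, and 72.9, 71.0, 92.0 and 85.6 CPM in Laminectomy. All 8 operated mice were above all 4 unoperated mice, and SHAM and Laminectomy covered nearly the same range. Adamts12 rose 3.14-fold in SHAM (log2 fold change 1.65, SE 0.193, adjusted p = 3.31e-05). For Laminectomy the increase was 3.03-fold (log2 fold change 1.60, SE 0.193, adjusted p = 5.16e-05).

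Adamts15, an enzyme with versican and aggrecan among its substrates, separated SHAM from the other groups. It was at 39.4, 17.4, 33.7 and 21.2 CPM in No operation, 134, 163, 117 and 107 CPM in SHAM, and 7.20, 43.2, 49.9 and 73.6 CPM in Laminectomy. Each SHAM mouse was above every mouse of both other groups, whereas Laminectomy overlapped No operation and its replicate 1 was the lowest of all 12. Adamts15 rose 4.67-fold in SHAM relative to No operation (log2 fold change 2.22, SE 0.524, adjusted p = 0.00326). The log2 fold change of Laminectomy over No operation was 0.64 (SE 0.506, adjusted p = 0.295), and without Laminectomy replicate 1 it was 1.00 and passed (adjusted p = 0.0135, range over all alternatives 0.0135 to 0.686). Laminectomy relative to SHAM had a log2 fold change of −1.58 (SE 0.511, adjusted p = 0.176), which did not pass in edgeR. DESeq2 gave −1.57 and called it (adjusted p = 0.0378, range over all alternatives 0.0378 to 0.402).

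Adamts5, the other main aggrecanase, was also highest in SHAM, with Laminectomy rather than No operation the lowest on average. The values were 67.4, 85.3, 83.3 and 49.8 CPM in No operation, 143, 109, 100 and 103 CPM in SHAM, and 31.0, 49.3, 47.4 and 68.9 CPM in Laminectomy. SHAM mice were the highest 4 of the 12, and Laminectomy overlapped No operation with 3 of its 4 mice below the whole No operation range. Adamts5 rose 1.59-fold in SHAM (log2 fold change 0.67, SE 0.235, adjusted p = 0.0269). This call was lost without No operation replicate 1 (0.64, adjusted p = 0.0574), without No operation replicate 4 (0.53, adjusted p = 0.0789) and without SHAM replicate 1 (0.54, adjusted p = 0.0819), in a range of 0.0118 to 0.0819 over all alternatives. With the replicate number as a block, Adamts5 in SHAM was also not called, as given below. Relative to No operation, Laminectomy had a log2 fold change of −0.54 (SE 0.235, adjusted p = 0.0657). It passed without No operation replicate 4 (−0.68, adjusted p = 0.0306) and without Laminectomy replicate 4 (−0.75, adjusted p = 0.0162). The log2 fold change of Laminectomy over SHAM was −1.21 (SE 0.237, adjusted p = 0.101), short of the threshold in edgeR. DESeq2 called it at −1.20 (adjusted p = 0.000516, range over all alternatives 0.000516 to 0.298).

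Adamts9, a versican-cleaving protease also needed for the secretory pathway and cilia, stood near its threshold. It ranged from 20.3 to 31.1 CPM in No operation, from 30.9 to 42.9 CPM in SHAM and from 26.6 to 38.5 CPM in Laminectomy, with overlap between all 3 groups. Adamts9 rose in SHAM with a log2 fold change of 0.57 (SE 0.175, adjusted p = 0.014), a call that was lost without SHAM replicate 4, where the log2 fold change was 0.48. In Laminectomy the log2 fold change of 0.45 (SE 0.175, adjusted p = 0.0448) was under the fold threshold. It passed without No operation replicate 2 (0.59), Laminectomy replicate 1 (0.54) or Laminectomy replicate 3 (0.51). Adamts1, which cleaves versican and aggrecan, was at 100 to 123 CPM in No operation, 83.7 to 144 CPM in SHAM and 62.7 to 154 CPM in Laminectomy. Its groups overlapped, with log2 fold changes of 0.09 in SHAM (adjusted p = 0.769) and −0.09 in Laminectomy (adjusted p = 0.763), whose signs turned when single operated mice were left out.

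**Figure D3:**
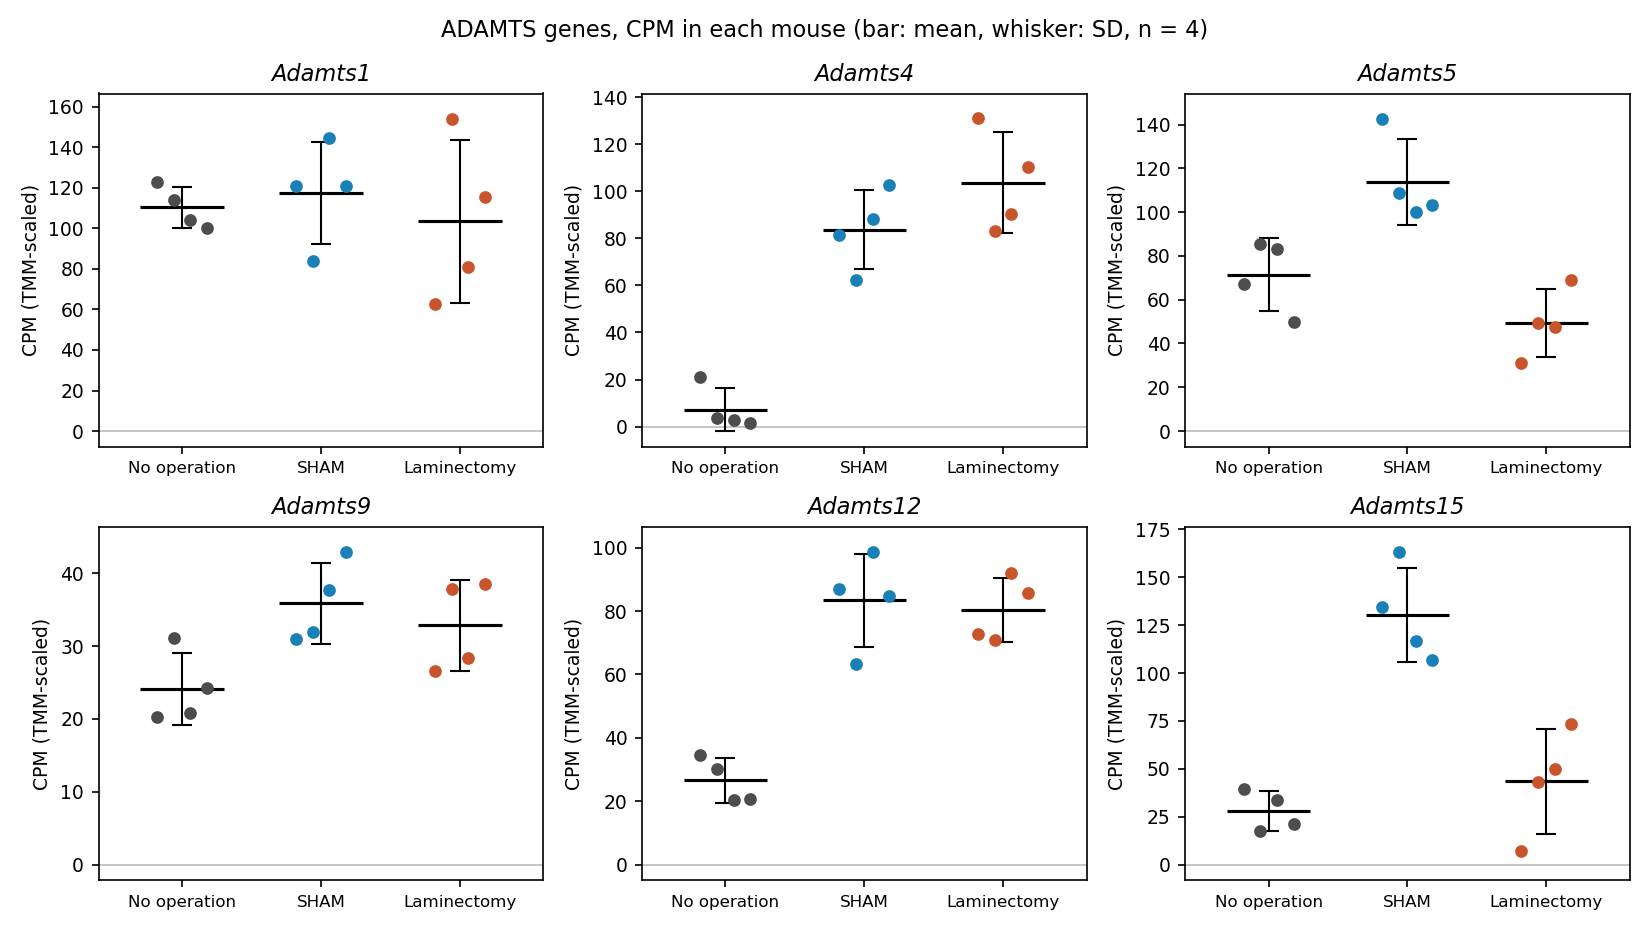
CPM of Adamts1, Adamts4, Adamts5, Adamts9, Adamts12 and Adamts15 in each of the 12 mice, 1 point per mouse. Group means for No operation, SHAM and Laminectomy were 7.19, 83.8 and 104 CPM for Adamts4, 26.5, 83.5 and 80.3 CPM for Adamts12, 27.9, 130 and 43.5 CPM for Adamts15, and 71.5, 114 and 49.2 CPM for Adamts5.

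To compare genes with one another, CPM were divided by exon length in kb. In No operation Timp2 (163 to 270 CPM per kb) was above Timp3 (73.2 to 133), and Timp3 was above Timp1 (4.42 to 61.1) and Adamts1 (18.9 to 23.2), which overlapped. In SHAM Timp2 (175 to 229) and Timp1 (165 to 258) overlapped at the top, far above Timp3 (13.3 to 34.4). In Laminectomy the same 2 genes led, with Timp2 at 179 to 221 and Timp1 at 112 to 226, and Timp3 at 16.5 to 25.3. Timp4 was the lowest of the 10 in both operated groups (0.0543 to 1.01 and 0 to 0.510), with no overlap with any other member. The order of the TIMPs thus changed from Timp2, Timp3, Timp1 to Timp2 and Timp1 with overlapping ranges, as a description of ranges without a test. This order rests on exon lengths of 0.888 kb (Timp1), 3.896 kb (Timp2) and 8.144 kb (Timp3), each the union of all annotated exons. In CPM, Timp2 (634 to 1050) and Timp3 (596 to 1085) overlapped in No operation. Timp1 lay below Timp2 in CPM in every operated mouse and overlapped Timp3 in both operated groups.

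The summed level of the 4 TIMPs overlapped among the groups, at 253 to 420 CPM per kb in No operation, 354 to 484 in SHAM and 317 to 421 in Laminectomy. Timp1 made up 1.51 to 4.74% of this sum in No operation replicates 2 to 4 and a larger share in replicate 1, which raised the group average to 6.66%, beside 38.5 to 53.3% in SHAM and 34.3 to 53.7% in Laminectomy. Timp3 made up on average 29.6%, 4.995% and 5.37%. For both genes, the share in every operated mouse lay outside the range of the unoperated mice. The 6 proteases summed to 29.4 to 42.1, 62.5 to 77.7 and 51.1 to 68.6 CPM per kb. Adamts1 held 55.1 to 64.3% of the protease sum without operation, 25.3 to 35.1% in SHAM and 23.2 to 45.4% in Laminectomy. Adamts4 held 1.09 to 10.3%, 20.8 to 28.6% and 27.0 to 53.4%, and Adamts15 held 4.57 to 9.43%, 13.8 to 25.2% and 1.36 to 10.4%. Adamts1 thus held most of the sum in every unoperated mouse, whereas Adamts4 had the larger share in Laminectomy replicates 1, 3 and 4. The ratio of Timp3 to Adamts4 plus Adamts5, inhibitor to the enzymes it is known to block, was 6.95 to 21.4 in No operation, 0.431 to 1.24 in SHAM and 0.546 to 1.16 in Laminectomy. The ratio of Adamts4 to Adamts5 was 0.0695 to 0.695, 1.28 to 2.23 and 3.59 to 9.50, so that the 3 groups did not overlap. These sums and ratios are descriptions of RNA levels and were not tested. Their sizes also depend on the exon lengths used.

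In the mouse genome 3 of the 4 Timp genes lie inside synapsin genes, on the opposite strand. By the annotation of build GRCm38, Timp1 sits in an intron of Syn1 with 0 shared exon bases, Timp4 lies within Syn2 with 90 shared bases, and Timp3 lies within Syn3 with 1733 shared bases. The host genes were low and differed in direction. Syn1, a synaptic vesicle protein gene, rose with Timp1 in SHAM (log2 fold change 2.47, SE 0.521, adjusted p = 0.00162), at 0.491 to 1.86 CPM in No operation and 3.60 to 8.65 CPM in SHAM. In Laminectomy Syn1 ranged from 2.97 to 12.3 CPM and rose as well (log2 fold change 2.74, SE 0.523, adjusted p = 0.000959). Syn3 fell in SHAM (log2 fold change −1.50, SE 0.505, adjusted p = 0.0223), a call that was lost without No operation replicate 3 or 4 and without SHAM replicate 2 or 4. Its log2 fold change in Laminectomy was −0.70 (adjusted p = 0.234), and Syn2 had 0.55 there and −0.59 in SHAM (adjusted p = 0.386 and 0.352). The host list thus gave 1 higher and 1 lower gene of 3 in SHAM and 1 higher and 0 lower in Laminectomy. For a list of 3, each count of 1 was near the share of all genes tested. Those shares were 25.7% higher and 25.1% lower in SHAM, and 24.2% and 24.4% in Laminectomy. The study's methods give default settings for the counting of reads, which do not use the strand, but 10.2% of the values in the table were not whole, so that it is unsure whether every setting was the default. Without the strand, reads of Timp3 and Syn3 in their shared bases could not be told apart. Adamts9 shares 1381 exon bases with A730049H05Rik and 424 with Gm15737 on the opposite strand, which carries the same uncertainty. Adamts1 and Adamts5 are neighbours on chromosome 16, 53.1 kb apart.

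**Figure D4:**
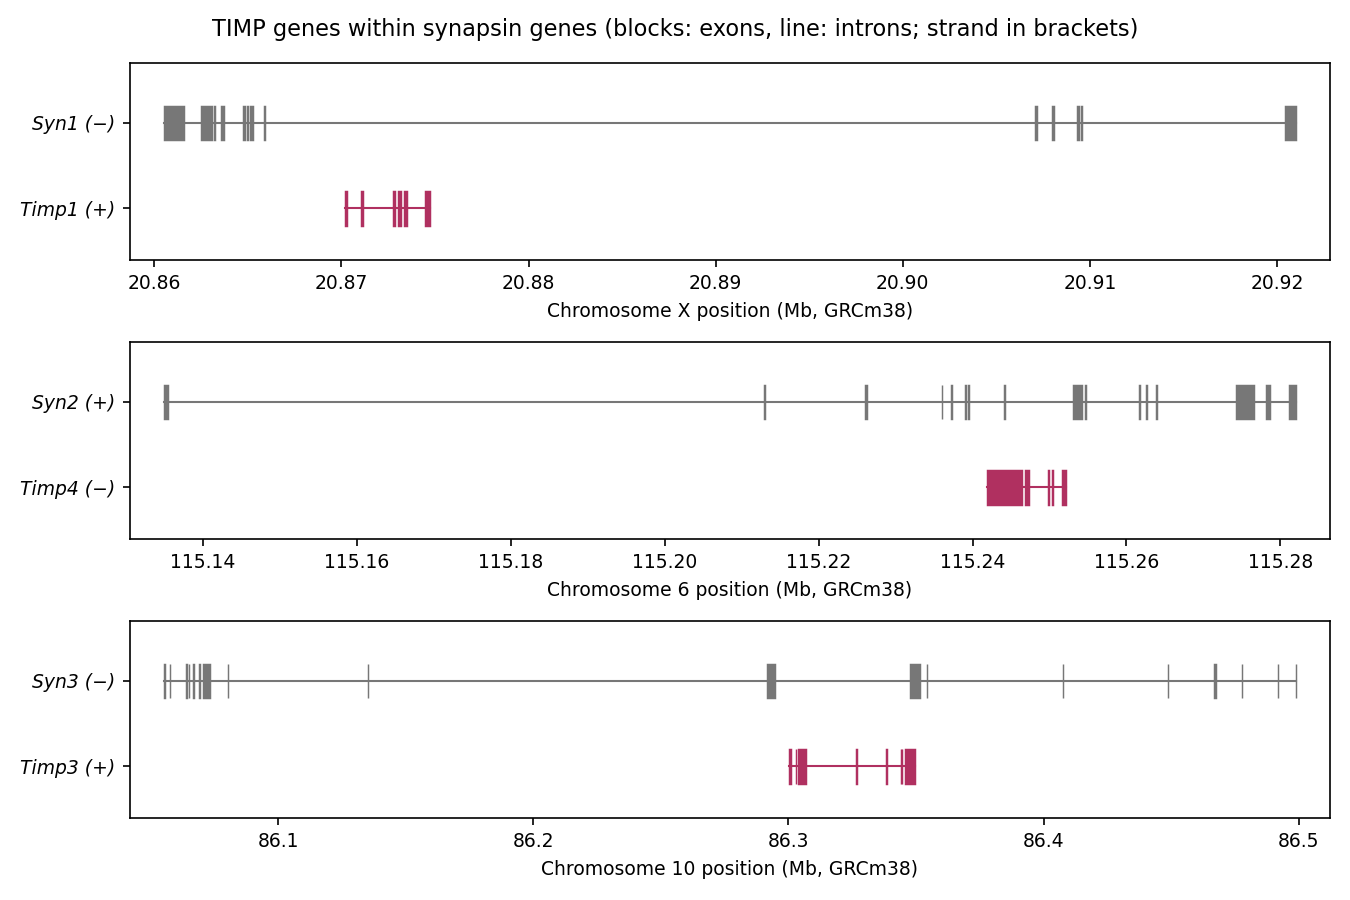
Exons of Timp1, Timp4 and Timp3 and of their host genes Syn1, Syn2 and Syn3 on GRCm38, to scale along each chromosome; short exons appear as a thin line. Each Timp gene lies on the strand opposite its host, with 0 (Timp1), 90 (Timp4) and 1733 (Timp3) shared exon bases.

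The sequences just upstream of the annotated starts of Timp1, Timp3, Timp4 and Adamts12 are shown because these 4 genes rose or fell in both operated groups and an upstream sequence could be read for each. They are from GRCm38.p6, each on the strand of its gene: Timp1 chrX:20869916-20870165 (plus), Timp3 chr10:86300162-86300371 (plus), Timp4 chr6:115252206-115252455 (minus) and Adamts12 chr15:11064523-11064772 (plus). Capitals in the Timp1 sequence mark the reverse complement of the GC box motif GGGCGG.

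Timp1: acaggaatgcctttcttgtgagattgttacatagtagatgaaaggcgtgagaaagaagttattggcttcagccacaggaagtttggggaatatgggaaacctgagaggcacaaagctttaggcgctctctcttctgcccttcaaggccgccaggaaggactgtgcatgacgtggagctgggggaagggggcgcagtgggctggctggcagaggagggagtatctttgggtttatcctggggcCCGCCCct

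Timp3: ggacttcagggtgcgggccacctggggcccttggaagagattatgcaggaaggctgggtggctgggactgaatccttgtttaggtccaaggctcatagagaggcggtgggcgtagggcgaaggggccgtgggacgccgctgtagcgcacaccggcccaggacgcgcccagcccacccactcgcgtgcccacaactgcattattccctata

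Timp4: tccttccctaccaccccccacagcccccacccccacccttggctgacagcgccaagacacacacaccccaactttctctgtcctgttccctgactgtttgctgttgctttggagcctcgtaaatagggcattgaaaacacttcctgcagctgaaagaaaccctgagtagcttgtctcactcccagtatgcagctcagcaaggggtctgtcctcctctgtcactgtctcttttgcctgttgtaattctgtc

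Adamts12: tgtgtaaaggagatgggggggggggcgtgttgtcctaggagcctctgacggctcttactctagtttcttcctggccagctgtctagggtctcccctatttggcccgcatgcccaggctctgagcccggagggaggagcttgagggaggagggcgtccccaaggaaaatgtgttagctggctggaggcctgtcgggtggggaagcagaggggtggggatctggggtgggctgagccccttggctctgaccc

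Within 250 bases upstream, the AP-1 site TGANTCA was found in 0 of the 7 members with an upstream sequence, beside 6.75% of 32851 mouse promoters. GGGCGG was found in Timp1, Timp2, Timp3, Adamts1 and Adamts9 and not in Timp4 or Adamts12, beside 32.7% of promoters. The starts are those of RefSeq, and by the GENCODE annotation the whole Timp2 window and the last 40 bases of the Timp3 window, which hold the match of each, lie in exons of Timp2 and Timp3 themselves and are not printed. TATAAA was found in Adamts1 only, beside 12.4% of promoters. A match describes the sequence and does not show that the site is used; upstream sequences of Adamts4, Adamts5 and Adamts15 were not analysed here.

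Beside the 10 genes, 54 related genes were grouped by role, and 39 of the 51 tested were DEGs in SHAM, 26 higher and 13 lower, beside 50.8% of all genes tested. In Laminectomy 31 were DEGs, 23 higher and 8 lower, beside 48.6% of all genes. Between Laminectomy and SHAM edgeR called 0, with 15 of 51 at an unadjusted p below 0.05, as were 16% of all genes. DESeq2 called 8 related genes, beside 4.35% of all genes. These 8 include Hapln2 and Ncan, which were not among the 51 tested by edgeR. The median log2 fold change of the related genes tested was 0.63 in SHAM and 0.73 in Laminectomy. It was 0.62 and 0.20 for the 10 genes and −0.002 and 0.009 for all genes tested. Of 14 targets and partners of TIMPs, 10 rose in SHAM and 11 in Laminectomy, beside 25.7% and 24.2% of all genes tested. In either group 0 fell, beside 25.1% and 24.4% of all genes. Mmp14, the membrane protease that works with Timp2, was at 48.6 to 356 CPM in No operation, 993 to 1177 CPM in SHAM and 1012 to 1262 CPM in Laminectomy. Mmp14 rose with log2 fold changes of 2.74 (SE 0.476, adjusted p = 0.000455) and 2.80 (SE 0.477, adjusted p = 0.00046), and with 3.46 and 3.52 without No operation replicate 1. Adam8, a protease of myeloid cells, was at 9.18 to 49.6, 185 to 625 and 147 to 387 CPM. It rose with log2 fold changes of 3.57 (SE 0.594, adjusted p = 0.000337) in SHAM and 2.93 (SE 0.578, adjusted p = 0.00116) in Laminectomy, and neither operated group overlapped No operation.

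Of 12 other ADAMTS proteases tested, 6 were higher and 3 lower in SHAM, and 5 higher and 2 lower in Laminectomy. Of all genes tested, 25.7% were higher and 25.1% lower in SHAM, and 24.2% higher and 24.4% lower in Laminectomy. The lower genes of this list were thus no more frequent than among all genes. Adamts14, a procollagen N-propeptidase, rose from 6.24 to 12.8 CPM in No operation to 49.0 to 86.8 CPM in SHAM (log2 fold change 2.88, SE 0.274, adjusted p = 1.01e-05). Laminectomy mice had 43.3 to 62.1 CPM of Adamts14, also above every unoperated mouse and overlapping SHAM. Adamts8, whose gene lies next to Adamts15 on chromosome 9, moved in the other direction, from 11.4 to 22.3 CPM to 0.909 to 3.02 CPM in SHAM and 0.265 to 1.93 CPM in Laminectomy. Its log2 fold changes were −3.18 (SE 0.544, adjusted p = 0.000401) and −3.84 (SE 0.565, adjusted p = 0.000174), and the operated mice did not overlap the unoperated mice. Adamts20, another versican-cleaving enzyme, fell from 24.4 to 47.6 CPM to 3.09 to 6.42 CPM in SHAM (log2 fold change −2.66, SE 0.315, adjusted p = 3.54e-05). In Laminectomy Adamts20 was at 3.60 to 8.69 CPM (log2 fold change −2.37, SE 0.310, adjusted p = 8.63e-05). Neighbours and relatives of the 6 proteases thus went in both directions, as did all genes tested.

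The 7 ADAMTS-like genes, which lack a protease domain, gave 1 higher and 5 lower in SHAM, and 0 higher and 4 lower in Laminectomy. The shares among all genes tested were 25.7% higher and 25.1% lower in SHAM, and 24.2% and 24.4% in Laminectomy. Adamtsl2 fell with log2 fold changes of −1.70 (SE 0.535, adjusted p = 0.0163) in SHAM and −1.93 (SE 0.540, adjusted p = 0.00929) in Laminectomy, at 3.65 to 18.9 CPM in No operation, 1.87 to 6.04 CPM in SHAM and 2.59 to 3.39 CPM in Laminectomy. The SHAM ranges overlapped No operation, and the call was lost without No operation replicate 3 or 4. Papln, which encodes papilin, fell in Laminectomy (log2 fold change −1.91, SE 0.446, adjusted p = 0.00332), from 6.27 to 12.1 CPM to 0.900 to 3.44 CPM. Its log2 fold change in SHAM was −0.81 in edgeR (adjusted p = 0.12) and did not pass, with overlapping values of 2.72 to 9.32 CPM. Of 8 genes for other inhibitors, clearance and activation, 5 rose and 2 fell in SHAM, beside 25.7% and 25.1% of all genes tested. In Laminectomy 2 rose and 2 fell, near the 24.2% and 24.4% of all genes. Pcsk6, a proprotein convertase, fell from 104 to 191 CPM to 26.4 to 37.6 CPM in SHAM (log2 fold change −2.17, SE 0.248, adjusted p = 2.84e-05). In Laminectomy Pcsk6 was at 33.0 to 64.5 CPM (log2 fold change −1.82, SE 0.245, adjusted p = 9.95e-05).

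Of 7 substrate and link protein genes tested, 3 were higher and 2 lower in SHAM, beside 25.7% and 25.1% of all genes tested. In Laminectomy 4 were higher and 0 lower, beside 24.2% and 24.4% of all genes. The 2 lower genes in SHAM were near the share of all genes. Acan, which encodes aggrecan, was at 12.1, 34.1, 13.7 and 1.33 CPM in No operation, 1.12, 16.6, 31.7 and 15.2 CPM in SHAM, and 172, 221, 87.0 and 73.9 CPM in Laminectomy. Every Laminectomy mouse was above all 8 others, and SHAM overlapped No operation. Acan rose in Laminectomy with a log2 fold change of 3.17 (SE 0.901, adjusted p = 0.00996), or 3.93 without No operation replicate 2. Relative to SHAM, the log2 fold change of Acan in Laminectomy was 3.10 in edgeR (SE 0.896, adjusted p = 0.15) and did not pass, while DESeq2 called it at 3.11. Comp, the substrate of Adamts12, fell in SHAM (log2 fold change −2.39, SE 0.722, adjusted p = 0.0132), from 127 to 440 CPM to 3.82 to 96.8 CPM, and stood at 116 to 308 CPM in Laminectomy. The cartilage marker sum given above was also lowest in SHAM. In Laminectomy over SHAM, 9 of 9 cartilage markers tested had a log2 fold change above 0 (median 2.69). Of these, 8 had an unadjusted p below 0.05 in edgeR, as did 16% of all genes. In Laminectomy over No operation the median of the cartilage markers was 2.17, with 7 above 0 and 2 below. The part of cartilage in Acan and Comp was not tested. Bcan, the brevican gene, rose in both groups from 1 to 11 counts per unoperated mouse, with 32 to 45 counts in SHAM and 46 to 244 in Laminectomy. Its log2 fold changes were 2.72 (SE 0.633, adjusted p = 0.00302) and 4.17 (SE 0.641, adjusted p = 0.00023). Without No operation replicate 2 these were 3.48 and 4.93, and without Laminectomy replicate 2 the second was 3.46. Hapln4, a link protein gene, rose in Laminectomy with a log2 fold change of 2.93 (SE 0.505, adjusted p = 0.000489), at 0.466 to 1.76 CPM in No operation and 3.60 to 13.1 CPM in Laminectomy. Hapln4 rose in SHAM as well (log2 fold change 2.47, SE 0.501, adjusted p = 0.00126), at 3.10 to 6.58 CPM. Laminectomy replicate 2, with the highest sum of central myelin and glia markers (819 CPM, against 33.8 to 223 CPM in the other Laminectomy mice), was also the highest mouse for Bcan (12.5 CPM), Hapln4 (13.1 CPM) and Syn1 (12.3 CPM). The part of these cells in the 3 genes was not tested.

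Across the 12 mice, the level of each member was compared with 10617 genes, as a description without a p. The genes named had the highest r in these same mice, so their r after group means were removed is no independent check. Timp1 was most like Fkbp11 (r = 0.989), a gene for an isomerase of the secretory pathway, and Clec4n (r = 0.988), a myeloid lectin gene, and it kept r = 0.992 and 0.971 after group means were removed. Adamts4 was most like Runx1 (r = 0.995) and Tfpi2 (r = 0.993), a transcription factor and a protease inhibitor gene, with 0.968 and 0.960 within groups. For Timp1 and Adamts4, the single high mouse No operation replicate 1 also shapes the values within groups. Timp3 was most like Ephx1 (r = 0.988, within groups 0.928) and Lamb2 (r = 0.984, within groups 0.863), and Timp4 like Gucy1a1 (r = 0.985, within groups 0.961) and Myoc (r = 0.984, within groups 0.950). Adamts12 followed Rlim (r = 0.978) and Pxdn (r = 0.977), but within groups these were lower, at 0.768 and 0.746. Adamts15 followed Galnt16 (r = 0.910) and Dip2b (r = 0.898), with 0.83 for both within groups. Adamts1, no DEG in either comparison, tracked the immediate early genes Dusp1 (r = 0.961) and Btg2 (r = 0.897) from mouse to mouse, with 0.970 and 0.929 within groups. For Adamts5 the closest were Steap4 (r = 0.946, within groups 0.888) and Carhsp1 (r = 0.910, within groups 0.807), and for Adamts9 Rgs2 (r = 0.866, within groups 0.725) and Mbtd1 (r = 0.858, within groups 0.696). Timp2 was closest to Lpar1 (r = 0.844) and then Cacna1g, with 0.883 and 0.864 within groups. Adamts5 and Adamts15, the 2 genes with SHAM above Laminectomy in every mouse, had r = 0.774 with each other and 0.678 within groups.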

How the data were processed

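Per the submitters' notes, the authors aligned reads to GRCm38/mm10 with STAR 2.6.1b and counted them with featureCounts 2.0.1. The deposited values were estimated counts per gene, of which 10.2% in 2933 genes were not whole; among the members only Adamts4 held such values (8 of 12), and rounding changed a value by at most 0.5. Library totals were 16803002 to 18077873 counts, and TMM factors 0.849 to 1.13. Genes passing filterByExpr (14765; 4231 removed) were tested in edgeR 4.0.16 under R 4.3.3 with a quasi-likelihood F test on all 12 mice in one fit, with a coefficient of variation of 28.3% and Benjamini-Hochberg adjustment over those genes. SE was the absolute log2 fold change divided by the square root of F. The 12 libraries were 4 biological replicates per group per the labels. Levels per kb used the union of exons of GENCODE M21.

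Members and lists were chosen with earlier results of these data known. Lists were other ADAMTS proteases, ADAMTS-like proteins, substrates and link proteins, TIMP targets and partners, other inhibitors with clearance and activation, TIMP host genes, and markers of skeletal muscle, fibroblasts, adipocytes, endothelium, macrophages, neutrophils, cartilage, and central myelin and glia. Named beside the members were the 5 largest increases and 5 largest decreases among related DEGs in each comparison, at a mean of at least 1 CPM in either group, the most abundant marker of each list, the 3 host genes, and the 2 genes most like each member by correlation of log2 CPM (prior count 2) among genes with a mean of at least 10 CPM. Alternatives were DESeq2 1.42.0, RLE factors, no filter, a log2 threshold of 1, only the groups compared, the replicate number as a block, and leaving out each mouse in turn. In simulated counts, 100 genes were changed by a log2 of 1 and 100 by a log2 of 2 in Laminectomy over SHAM. There edgeR recovered 33 and 100 of them with 2 false calls, and DESeq2 47 and 99 with 17. Every simulated gene had the same coefficient of variation (28.3%), and the groups were otherwise equal, unlike the data. The recoveries thus do not give the power of either tool in the data. Protein sequences were not used here, and some genes that the rules above would name are not reported here.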

Additional observations from a re-analysis of the deposited data

Results flagged for a closer look

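In groups of 4 mice, the gap between the highest or lowest mouse and its nearest neighbour, divided by the range, was set against Dixon's critical value at the 95% level. Of 54 groups checked, 4 exceeded it, and chance alone exceeds it in about 1 group in 20. Timp1 in No operation replicate 1 was 54.24 CPM against 3.925 to 10.64 CPM in the other 3 mice (gap over range 0.866). Adamts4 in the same mouse was 20.88 CPM against 1.542 to 3.527 CPM (0.897). Timp4 in SHAM replicate 3 was 5.931 CPM against 0.3203 to 1.18 CPM (0.847). The adipocyte marker sum in SHAM replicate 3 was 2597 CPM against 288.7 to 665.2 CPM (0.837). The cause of each was not tested.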

How the results depend on the processing

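Of 540 values of single members under the alternatives, 513 kept direction and side of the threshold, 7 lost the call, 8 gained it and 12 changed sign. Leaving out each mouse gave log2 fold changes of −0.041 to 0.223 for Timp2 and −0.023 to 0.224 for Adamts1 in SHAM over No operation, and of −0.131 to 0.141 for Timp2 and −0.350 to 0.085 for Adamts1 in Laminectomy over No operation. For Laminectomy over SHAM these ranges were −0.270 to 0.230 for Timp3, −0.494 to 1.390 for Timp4 and −0.167 to 0.034 for Adamts12. None of these was a DEG in any fit, and the cause was not tested. In Laminectomy over SHAM, DESeq2 called 2 members and 8 related genes, and edgeR called 0 of those it tested. Hapln2 and Ncan, among the 8, were removed by the filter and so not tested in the main edgeR fit. Without the filter edgeR also called 0 of 18613 genes, and the cause of the difference was not tested. Over all alternatives members called numbered 6 to 8, 5 to 7 and 0 to 2 in the 3 comparisons, and related genes 33 to 39, 27 to 32 and 0 to 8. With the replicate block, Timp4 in Laminectomy over SHAM was 0.038, Adamts5 in SHAM was 0.68 and not called (adjusted p = 0.0552), 7 members were called in SHAM, and calls among all genes were 7441, 7153 and 0 instead of 7502, 7182 and 0. Of 12 pairs of samples with the same number, 7 had r over 0.1 (range −0.228 to 0.352), as did 10 of 36 pairs with different numbers; since not all 12 did and the labels name no pairing, the numbers were not taken to pair the samples. Of 391 refits of named related genes, 385 kept their call, 6 lost it (Adamtsl2 and Syn3) and 0 changed sign. A group size of 4 mice, low counts of Timp4, Bcan and the host genes, and tissue mixtures that differ between groups limit what these values show.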
